A study of Mus musculus with 20 samples.

Results

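Glycolysis splits glucose into pyruvate in the cytosol, and lactate dehydrogenase and the monocarboxylate transporters then dispose of pyruvate as lactate. Several steps are served by isozymes, enzymes that run the same reaction from different genes, and tissues differ in which of them they use. Gluconeogenesis runs the route in the opposite direction with a few enzymes of its own, which the proximal tubule of the kidney carries at high levels, as the liver does, while red cell precursors, granulocytes and muscle rely on the downhill route. The 39 genes described here, 39 symbols among 55486 genes in each count table, cover glucose entry, the glycolytic steps with their isozymes, the regulators of phosphofructokinase, lactate formation and export, the pyruvate dehydrogenase kinases and gluconeogenesis. They were chosen by name, as the rows of both tables that carry a listed symbol. The symbol Aldoa stands on 2 rows, and the gene ENSMUSG00000030695 was taken as Aldoa.

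RNA came from bone marrow and kidney of C57BL/6 mice, 5 mice per group. Oxaliplatin is a platinum chemotherapy drug that forms adducts with DNA. Treated mice received 10 mg/kg oxaliplatin in 5% dextrose by intraperitoneal injection for 8 weeks, and vehicle mice received 5% dextrose alone. Males and females entered the study at an age of 10 weeks. They were killed 6 days past the final injection, and marrow came from tibia and femur. No group carried a genetic change, and whole tissue was profiled, so fewer cells of a type and less RNA per cell cannot be told apart.

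Each library yielded between 24393007 and 41140527 counts in genes. Values are CPM, read counts relative to library size after TMM scaling within a tissue, and 3 counts, the floor used here, equaled 0.0668 to 0.130 CPM. A gene was called when edgeR's quasi-likelihood test gave an adjusted p under 0.05 and the change exceeded 1.5-fold, with adjustment over all genes tested in the tissue. Marker genes of the labeled tissues were present: late erythroid and neutrophil genes were abundant in marrow, and proximal tubule genes in kidney, where neutrophil markers summed to at most 3.33 CPM. Y-linked genes exceeded 1 CPM in all 20 libraries, with sums of 77.5 to 173 CPM. No library looked like that of a female, although the study names both sexes. Some libraries stood apart within their group. In marrow, oxaliplatin mice 3 and 4 had neutrophil markers (S100a8, S100a9 and 6 others) that summed to 6799 and 9266 CPM, against 20303 to 25905 CPM in the other treated mice and 17395 to 21343 CPM with vehicle. In kidney, oxaliplatin mice 1 and 5 had 0.00467% and 0.00475% of their counts in hemoglobin genes, against 0.0222% to 0.0727% in the other 8 kidneys. Counts of called members are given with and without these libraries, and so are the values of some members.

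In marrow, 37 of the 39 members had enough counts to be tested, and G6pc and Fbp2 did not. Of these 37, 14 rose and 3 fell past the call rule, where 11.6% and 11.8% of the 22363 genes tested were called in those directions and 23.3% in either. By adjusted p alone, 18 rose and 5 fell (all genes, 16.3% and 16.8%). All 5 treated mice lay above all 5 vehicle mice for 16 members and below them for 5 (all genes, 11.4% and 13.5%). The median log2 fold change was 0.43 over the members and -0.04 over all genes tested. Without oxaliplatin mice 3 and 4, 17 members rose and 4 fell.

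In kidney, all 39 members were tested, and 14 rose and 2 fell, where 7.68% and 3.81% of the 19293 genes tested were called in those directions and 11.5% in either. By adjusted p alone, 20 rose and 2 fell (all genes, 14.4% and 15%). The treated mice lay wholly above the vehicle mice for 15 members and wholly below for 1 (all genes, 9.69% and 11%). The median log2 fold change was 0.35 over the members and 0.02 over all genes. Without oxaliplatin mice 1 and 5, 9 members rose and 2 fell. Pdk1, Slc2a1, Aldoa and Gpi1 then kept an adjusted p under 0.05 but not the 1.5-fold change (log2 fold changes of 0.58, 0.45, 0.42 and 0.32), and Eno2 had an adjusted p of 0.24.

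In all, 6 genes rose in both tissues, namely Slc2a1, Pfkl, Pfkp, Aldoa, Eno1 and Pdk1, which makes 6 of the 14 called higher in marrow and 6 of the 14 called higher in kidney. A further 8 rose in marrow and were not called in kidney (Tpi1, Gapdh, Pgk1, Pgam1, Ldha, Pdk4, Fbp1 and Pck1). Conversely, 7 rose in kidney and were not called in marrow (Slc2a3, Gpi1, Pfkfb3, Aldoc, Eno2, Pkm and Slc16a3), together with Fbp2, which was not tested in marrow. Slc2a4, Bpgm and Slc16a1 fell in marrow, and Pdk3 and G6pc fell in kidney. The remaining 12 members were called in neither tissue.

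**Figure D1:**
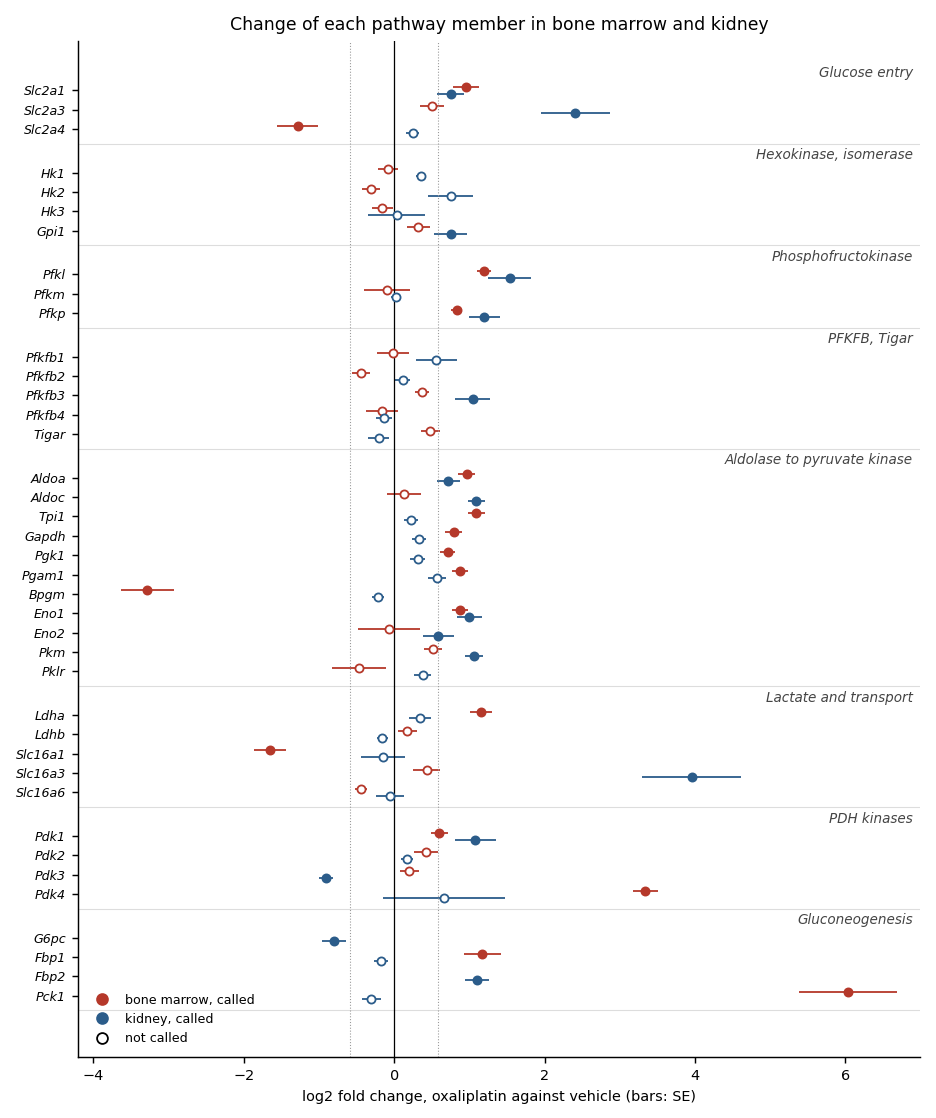
Log2 fold change of each member between oxaliplatin and vehicle mice (horizontal axis, bars give the SE, 5 mice per group), grouped by step from glucose entry to gluconeogenesis; filled points were called and dotted lines mark 1.5-fold. Most points of the payoff steps lie to the right of 0 in both tissues, while the filled marrow points of Bpgm, Slc16a1 and Slc2a4 lie to the left, and Pck1 and Slc16a3 reach the largest values, 6.04 in marrow and 3.96 in kidney.

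Promoter sequence is shown because several members are textbook targets of hypoxia-inducible factor, which binds DNA at the letters ACGTG. RefSeq promoter windows of GRCm38.p6, 250 bases before to 50 bases after each annotated start, were matched by symbol for 36 of the 39 members, and not for Slc2a3, Slc2a4 and Slc16a6. ACGTG, read on both strands, was present in 23 of the 56 member windows (41.1%) and in 19.6% of all 32851 windows. CACGTG, which contains ACGTG, was present in 12.5% and 7.15%, and GCGTG in 44.6% and 32.4%. By gene, ACGTG was present for 11 of 21 matched members that rose in either tissue, 2 of 4 that fell and 6 of 11 that were called in neither. The lines below give, 5′ to 3′ on the gene's strand, the 40 bases around the ACGTG nearest to the start among those whose 40 bases lie upstream of it, for each called member that has one, with the motif or its reverse complement in capitals.
Slc2a1, chr4:119108691-119108730, plus strand: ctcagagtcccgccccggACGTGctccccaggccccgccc
Aldoa, chr7:126799359-126799398, minus strand: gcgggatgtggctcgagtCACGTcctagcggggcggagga
Pgam1, chr19:41911739-41911778, plus strand: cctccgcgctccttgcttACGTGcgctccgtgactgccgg
Pgk1, chrX:106186951-106186990, plus strand: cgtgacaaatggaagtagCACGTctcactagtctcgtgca
Ldha, chr7:46845752-46845791, plus strand: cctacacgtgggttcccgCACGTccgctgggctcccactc
Pkm, chr9:59657134-59657173, plus strand: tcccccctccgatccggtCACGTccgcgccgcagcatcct
Pfkfb3, chr2:11502121-11502160, minus strand: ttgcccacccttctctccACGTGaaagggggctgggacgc
Slc16a3, chr11:120949022-120949061, plus strand: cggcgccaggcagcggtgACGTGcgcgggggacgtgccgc
Fbp2, chr13:62858420-62858459, minus strand: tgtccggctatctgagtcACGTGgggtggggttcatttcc
Slc16a1, chr3:104638447-104638486, plus strand: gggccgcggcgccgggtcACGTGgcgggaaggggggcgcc
Pdk3, chrX:93832182-93832221, minus strand: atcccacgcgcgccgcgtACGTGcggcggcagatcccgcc
The motif began 27 bases upstream of the start in Slc16a3, 34 in Ldha and 36 in Slc2a1, and 199 in Slc16a1. The last pair in the list, Slc16a1 and Pdk3, fell, so the letters occur beside genes of both directions. A match is a string of letters and no measurement of binding.

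Glucose enters cells through the Slc2a transporters. Slc2a1 (GLUT1), a transporter of many growing cells, rose in both tissues. In marrow it was at 15.1, 15.5, 19.8, 20.1 and 19.1 CPM in the vehicle mice and at 46.4, 33.3, 22.4, 30.98 and 39.98 CPM in the oxaliplatin mice (log2 fold change 0.95, SE 0.17, adjusted p = 0.00090). In kidney it was at 49.5, 46.8, 59.4, 65.7 and 67.9 CPM with vehicle and at 119, 76.6, 83.7, 75.8 and 130 CPM with oxaliplatin (log2 fold change 0.75, SE 0.18, adjusted p = 0.012). The groups did not overlap in either tissue, and in marrow oxaliplatin mouse 3 came close to the vehicle mice.

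Slc2a3 (GLUT3) is the high-affinity transporter of neurons and leukocytes. In kidney it was low with vehicle, at 0.821, 1.14, 0.950, 1.57 and 1.09 CPM, and higher with oxaliplatin, at 8.90, 2.09, 3.88, 3.82 and 10.9 CPM (log2 fold change 2.41, SE 0.46, adjusted p = 0.0029). All 5 treated kidneys lay above the vehicle kidneys, and mice 1 and 5 were highest. In marrow, where Slc2a3 held 67.1% ± 3.35 of the CPM per kb of the 3 transporters with vehicle, it was at 232, 241, 273, 273 and 275 CPM with vehicle and at 439, 340, 245, 318 and 487 CPM with oxaliplatin. Mouse 3 lay within the vehicle range and the other treated mice above it. The log2 fold change was 0.50 (SE 0.16, adjusted p = 0.030), which stayed under 1.5-fold. It was 0.71 (adjusted p = 0.00017) without mice 3 and 4, and beyond 1.5-fold too without mouse 3 alone (0.61).

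Slc2a4 (GLUT4), the insulin-regulated transporter of muscle and fat, fell in marrow from 49.2, 46.8, 47.2, 40.6 and 32.2 CPM to 22.3, 11.6, 22.2, 24.5 and 7.82 CPM (log2 fold change -1.29, SE 0.28, adjusted p = 0.0037). The groups did not overlap. The treated mice with the lowest values, 5 and 2, were also those with the lowest summed adipocyte markers, while over both groups Slc2a4 fell as those markers rose. Summed late erythroid markers fell over the same mice, from 8551 to 12209 CPM with vehicle to 1404 to 2485 CPM with oxaliplatin. The part of either cell type in the fall of Slc2a4 was not tested. In kidney Slc2a4 had a log2 fold change of 0.24 (adjusted p = 0.038). The share of Slc2a4 in the CPM per kb of the 3 transporters was 23.4% ± 4.14 (SD, n = 5) with vehicle and 8.37% ± 4.45 with oxaliplatin in marrow, where Slc2a1 moved from 9.57% ± 0.90 to 15.0% ± 1.18. The change in Slc2a4 differed between the tissues by 1.46 on the log2 scale (adjusted p = 0.0011).

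Hexokinases trap glucose as glucose 6-phosphate, and glucose 6-phosphate isomerase (Gpi1) passes it on. None of these 4 genes was called in marrow, and Gpi1 alone was called in kidney. The isozymes that led differed between the tissues: Hk3, the granulocyte hexokinase, made up 57.8% ± 3.10 of the hexokinase CPM per kb in vehicle marrow, and Hk1, the enzyme of most tissues and of red cells, made up 96.6% ± 0.76 in vehicle kidney. With oxaliplatin these shares were 57.1% ± 7.22 and 96.0% ± 1.43, and the groups overlapped.

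Hk1 in kidney was at 181, 181, 193, 193 and 192 CPM with vehicle and at 258, 233, 231, 229 and 247 CPM with oxaliplatin. The groups did not overlap and the test passed (adjusted p = 0.00044), but the change was small (log2 fold change 0.35, SE 0.06). Hk2, an inducible isozyme and a known target of hypoxia-inducible factor, was at 2.51 to 4.44 CPM in vehicle kidney and at 3.37 to 10.2 CPM in treated kidney (log2 fold change 0.75, SE 0.30, adjusted p = 0.078), with mice 5 and 1 highest. It was called higher without mouse 2 (0.91) or mouse 3 (0.90), and by DESeq2 (log2 fold change 0.74, adjusted p = 0.030). Hk3 in marrow was at 313, 322, 334, 295 and 374 CPM with vehicle and at 321, 300, 217, 254 and 376 CPM with oxaliplatin (log2 fold change -0.16, adjusted p = 0.42). Its lowest values were in mice 3 and 4, the mice with the fewest neutrophil transcripts.

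Gpi1 in kidney moved from 591, 546, 569, 556 and 579 CPM to 1235, 688, 764, 659 and 1431 CPM (log2 fold change 0.75, SE 0.22, adjusted p = 0.028). The groups did not overlap, but mice 1 and 5 carried most of the rise: the log2 fold change was 0.57 without mouse 5. Leaving out mouse 1, or any of vehicle mice 2 to 5, raised the adjusted p to between 0.053 and 0.061. In marrow Gpi1 had a log2 fold change of 0.32 (SE 0.15, adjusted p = 0.14).

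Phosphofructokinase commits sugar to glycolysis and works as a tetramer of liver (Pfkl), muscle (Pfkm) and platelet (Pfkp) subunits. Of the 3 genes, Pfkl and Pfkp rose in both tissues and Pfkm in neither. Pfkl (chr10:77986947-78010083, GRCm38) in marrow was at 58.6, 57.0, 61.9, 68.4 and 56.4 CPM with vehicle and at 136, 136, 159, 122 and 140 CPM with oxaliplatin (log2 fold change 1.197, SE 0.09, adjusted p = 1.1e-06). In kidney it was at 112, 105, 114, 105 and 117 CPM and at 415, 185, 248, 229 and 528 CPM (log2 fold change 1.54, SE 0.29, adjusted p = 0.0042). Every treated mouse was above every vehicle mouse in both tissues. The spread within treated kidneys, an SD of 145 CPM against 5.58 CPM with vehicle, was carried by mice 1 and 5.

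Pfkp in marrow moved from 60.8 ± 3.02 to 108 ± 4.09 CPM (SD, n = 5; log2 fold change 0.83, adjusted p = 2.8e-06), a rise shared almost evenly by the 5 treated mice, at 105 to 115 CPM. In kidney it was at 40.6, 33.9, 40.1, 44.2 and 46.8 CPM with vehicle and at 108, 67.0, 76.8, 77.3 and 143 CPM with oxaliplatin (log2 fold change 1.201, SE 0.21, adjusted p = 0.0024). The kidney groups did not overlap, with mice 1 and 5 again on top. Pfkm in kidney was at 82.9, 76.7, 68.6, 75.96 and 73.3 CPM with vehicle and at 77.5, 81.4, 79.6, 72.7 and 72.0 CPM with oxaliplatin, within the vehicle range (log2 fold change 0.02, SE 0.07, adjusted p = 0.84).

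Pfkm in marrow was at 50.8, 52.7, 67.5, 57.8 and 47.6 CPM with vehicle and at 28.1, 41.6, 105, 49.9 and 34.9 CPM with oxaliplatin (log2 fold change -0.09, SE 0.31, adjusted p = 0.86). One treated mouse, number 3, lay far above the rest, and the other 4 reached into or below the vehicle range. Mouse 3 also had the highest summed skeletal muscle markers, 908 CPM against 52.5 to 454 CPM in the other treated mice and 12.4 to 123 CPM with vehicle. Treated mice 1, 2 and 5, with 454, 387 and 445 CPM of these markers, had Pfkm below the vehicle range. Mouse 3 was the highest treated mouse in late erythroid markers too, at 2485 CPM. The part of either cell type in the Pfkm values was not tested. Without mice 3 and 4, Pfkm fell past the call rule (log2 fold change -0.66, adjusted p = 0.0018). Without mouse 3 alone, the log2 fold change was -0.52.

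The subunit mix shifted toward Pfkl in both tissues. As a share of the summed CPM per kb of the 3 subunits, Pfkl went from 30.1% ± 1.83 to 48.1% ± 7.27 in marrow and from 39.3% ± 2.10 to 59.4% ± 9.14 in kidney. Pfkm went from 54.7% ± 2.76 to 33.1% ± 10.3 in marrow and from 53.5% ± 2.54 to 31.6% ± 9.34 in kidney. The treated and vehicle ranges of both shares were separate in each tissue. Which subunit led rests on the length used: the Pfkl gene model has 6675 bases of exon, all isoforms joined, and the Pfkm model 3340. In CPM not divided by length, the mean of Pfkl was above that of Pfkm in both tissues and both groups. In vehicle marrow, Pfkp was then level with Pfkl, at means of 60.8 and 60.5 CPM.

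**Figure D2:**
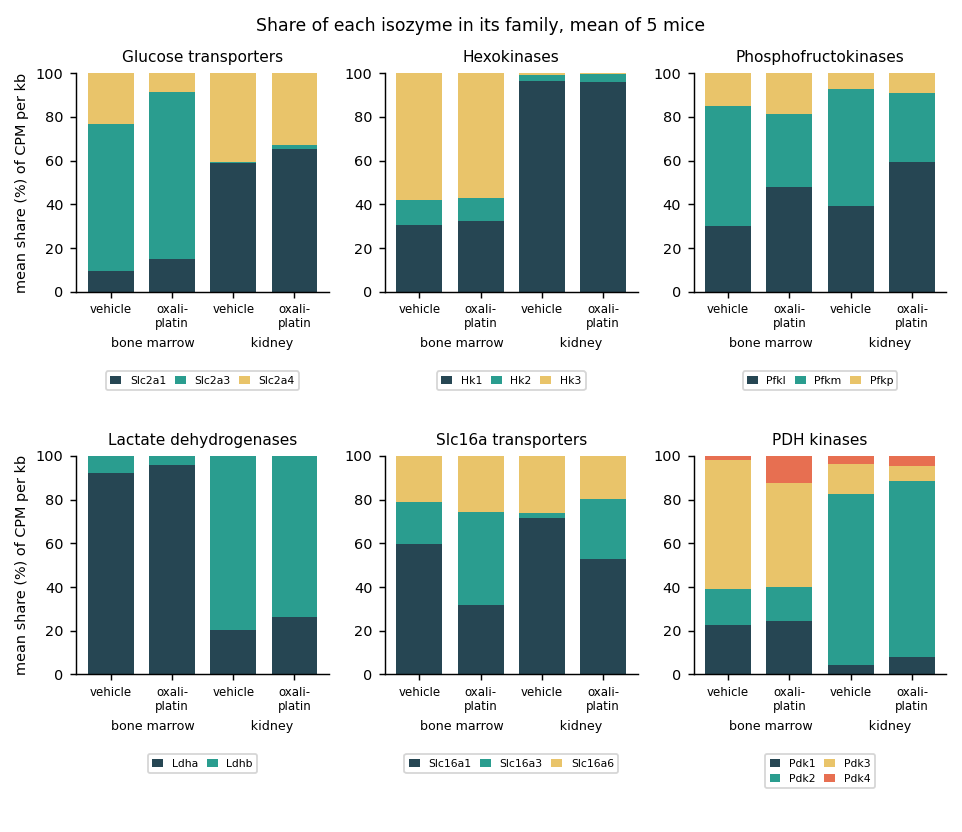
Mean share of each isozyme in the summed CPM per kb of its family (vertical axis, percent, mean of 5 mice) for vehicle and oxaliplatin mice in marrow and kidney. Pfkl takes 48.1% with oxaliplatin against 30.1% with vehicle in marrow and 59.4% against 39.3% in kidney, Slc16a3 appears in kidney with 27.5% against 2.63%, and the hexokinase bars hardly move.

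The Pfkfb enzymes make and remove fructose 2,6-bisphosphate, the strongest activator of phosphofructokinase, and Tigar, a target of p53, removes it. Pfkfb3, the inducible isozyme with the greatest kinase bias, rose in kidney from 26.2, 29.5, 26.6, 25.4 and 23.2 CPM to 62.8, 32.7, 39.01, 53.9 and 81.7 CPM (log2 fold change 1.05, SE 0.23, adjusted p = 0.0089). The groups did not overlap. Its share of the Pfkfb CPM per kb was 45.8% ± 2.21 with vehicle and 61.9% ± 9.25 with oxaliplatin, the leading isozyme of kidney in both groups.

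In marrow the regulators changed less, and none of the 5 was called. Pfkfb3 was at 77.2 to 94.0 CPM and at 93.9 to 126 CPM (log2 fold change 0.37, SE 0.10, adjusted p = 0.0093). Tigar was at 5.82 to 7.80 CPM with vehicle and at 9.21 to 10.4 CPM with oxaliplatin, without overlap (log2 fold change 0.48, SE 0.13, adjusted p = 0.0098). Pfkfb2, the heart and kidney isozyme, was at 14.1 to 18.8 CPM and at 10.0 to 13.2 CPM, without overlap (log2 fold change -0.44, SE 0.12, adjusted p = 0.013). Pfkfb4, which led the family in vehicle marrow with 57.4% ± 1.99 of the CPM per kb, was at 106, 94.7, 44.7, 69.5 and 122 CPM in the treated mice against 88.6, 95.6, 105, 91.0 and 109 CPM with vehicle (log2 fold change -0.16, SE 0.21, adjusted p = 0.61). Its lowest values were again in mice 3 and 4. In kidney Tigar had a log2 fold change of -0.21 (adjusted p = 0.27), and the difference between the tissues passed the test (-0.75 on the log2 scale, adjusted p = 0.0055). Pfkfb1, the liver and muscle isozyme, stayed under 10 CPM in all mice of both tissues and was not called.

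From aldolase to pyruvate kinase, 6 of 11 genes rose and 1 fell in marrow, and 5 of 11 rose in kidney (all genes, 11.6% higher and 11.8% lower in marrow and 7.68% higher in kidney). The marrow rises were of similar size and covered consecutive steps: Aldoa (0.96 on the log2 scale), Tpi1 (1.09), Gapdh (0.79), Pgk1 (0.71), Pgam1 (0.88) and Eno1 (0.87), each with an SE of 0.10 to 0.12. Aldoa, which splits fructose 1,6-bisphosphate, was at 314, 354, 371, 406 and 356 CPM with vehicle and at 739, 705, 793, 570 and 708 CPM with oxaliplatin in marrow (adjusted p = 2.6e-05). Tpi1, which interconverts the triose phosphates, was at 123, 119, 122, 147 and 108 CPM and at 250, 265, 333, 243 and 230 CPM (adjusted p = 1.5e-05). Groups did not overlap for any of these 6 genes, and mouse 4 was the lowest treated mouse in 5 of them, Tpi1 being the exception.

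Eno1 (enolase 1), which makes phosphoenolpyruvate, rose in kidney from 569, 558, 595, 561 and 601 CPM to 1478, 886, 983, 867 and 1559 CPM (log2 fold change 1.00, SE 0.16, adjusted p = 0.00083). It and the kidney value of Aldoa (log2 fold change 0.72, SE 0.15, adjusted p = 0.0033) had no overlap between groups. Aldoa was at 912.5, 843, 914, 883 and 920 CPM with vehicle and at 1903, 1127, 1329, 1100 and 1914 CPM with oxaliplatin, with mice 1 and 5 highest. Eno1b, a gene nearly identical to Eno1, can share its reads. In kidney the steps between these enzymes moved less: Tpi1 had a log2 fold change of 0.22 (adjusted p = 0.072), Gapdh 0.32 (0.013), Pgk1 0.31 (0.021) and Pgam1 0.57 (0.0022). Pgam1 passed 1.5-fold without vehicle mouse 5 (0.61) and without oxaliplatin mouse 2 (0.61) or 4 (0.66). The change in Tpi1 differed between kidney and marrow by -0.93 on the log2 scale (adjusted p = 0.00016). For Gapdh (-0.53), Pgk1 (-0.46) and Pgam1 (-0.37) the differences were under 1.5-fold, with adjusted p of 0.011, 0.019 and 0.096. The Gapdh difference reached -0.60 without marrow oxaliplatin mouse 4 or kidney oxaliplatin mouse 1 and was then called.

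Aldoc, the brain-type aldolase, rose in kidney from 16.3, 14.8, 19.1, 19.9 and 16.6 CPM to 43.4, 31.5, 33.6, 31.5 and 44.6 CPM (log2 fold change 1.09, SE 0.12, adjusted p = 7.2e-06). In marrow it was at 2.37 to 3.26 CPM and at 2.40 to 4.70 CPM (log2 fold change 0.13, adjusted p = 0.70), and the change differed between the tissues by 0.90 (adjusted p = 0.0060). Eno2, the neuronal enolase, was low in kidney, at 1.49 to 2.40 CPM with vehicle and at 2.12 to 3.84 CPM with oxaliplatin. Its groups overlapped and its call was marginal (log2 fold change 0.59, SE 0.20, adjusted p = 0.036). It was lost on leaving out any of 6 of the 10 kidneys, each of vehicle mice 1, 3, 4 and 5 and oxaliplatin mice 1 and 5, with adjusted p of 0.059 to 0.11.

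Pyruvate kinase comes as Pkm in most tissues and as Pklr in liver, red cells and proximal tubule. Pkm rose in kidney from 235, 254, 267, 250 and 260 CPM to 649.1, 416.4, 481.3, 443.9 and 657.1 CPM (log2 fold change 1.06, SE 0.12, adjusted p = 2.1e-05), with no overlap. In marrow it was at 665, 703, 728, 809.5 and 737 CPM and at 1124, 1069, 980, 831 and 1195 CPM, also without overlap, and stayed under 1.5-fold (log2 fold change 0.51, SE 0.12, adjusted p = 0.0041). It passed 1.5-fold without mouse 4 (0.59) and without mice 3 and 4 (0.63). The Pkm share of the CPM per kb of both genes in kidney was 82.2% ± 0.76 with vehicle and 88.1% ± 1.49 with oxaliplatin. Counts per gene do not separate the spliced forms of Pkm. Pklr in marrow was at 45.8 to 76.6 CPM with vehicle and at 14.9, 45.0, 82.6, 54.7 and 30.7 CPM with oxaliplatin (log2 fold change -0.47, SE 0.35, adjusted p = 0.35), spread over more than the vehicle range in both directions. In kidney its log2 fold change was 0.38 (adjusted p = 0.024), and the tissues differed by 0.76 (adjusted p = 0.18), or by 1.12 without marrow oxaliplatin mouse 3 (adjusted p = 0.024).

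Bpgm (chr6:34476207-34505613, GRCm38) makes 2,3-bisphosphoglycerate, the ligand with which red cells lower the oxygen affinity of hemoglobin. It had the largest fall of all members, from 540, 559, 497, 690 and 370 CPM to 76.6, 83.7, 30.3, 23.5 and 58.7 CPM in marrow (log2 fold change -3.29, SE 0.35, adjusted p = 3.0e-05). The lowest vehicle mouse was far above the highest treated mouse. Late erythroid markers fell beside it: 8 of the 9 listed genes were found and all 8 were called lower, and their sum went from 8551 to 12209 CPM with vehicle to 1404 to 2485 CPM with oxaliplatin. Among the treated mice Bpgm and the share of counts in hemoglobin genes had the same order, from mouse 4 (0.282% of counts) through mice 3, 5 and 1 to mouse 2 (0.919%). The erythroid marker sum had another order, lowest in mouse 5 and highest in mouse 3, which was second lowest in Bpgm. The part of the erythroid cells in the fall was not tested. In kidney Bpgm was at 45.3 to 53.8 CPM and at 35.8 to 45.7 CPM (log2 fold change -0.21, SE 0.08, adjusted p = 0.052), and the tissues differed by 3.03 on the log2 scale (adjusted p = 1.2e-06).

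Lactate dehydrogenase turns pyruvate into lactate and back, with Ldha favoring lactate and Ldhb the heart-type partner. In marrow Ldha rose from 274, 305, 312, 381 and 283 CPM to 627, 707, 921, 589 and 620 CPM (log2 fold change 1.15, SE 0.14, adjusted p = 4.0e-05). Its groups did not overlap. Its share of the CPM per kb of both genes was 92.3% ± 0.83 with vehicle and 95.9% ± 0.53 with oxaliplatin. In kidney, where Ldhb led with 79.7% ± 1.17, Ldha was at 676, 607, 681, 680 and 755 CPM and at 1081, 667, 792, 655 and 1125 CPM (log2 fold change 0.35, SE 0.15, adjusted p = 0.098). Here the groups overlapped and the test did not pass, with mice 1 and 5 alone above 1000 CPM. The Ldha change was smaller in kidney than in marrow by 0.88 on the log2 scale (adjusted p = 0.0036). Ldhb in kidney was at 1263, 1215, 1359, 1222 and 1277 CPM and at 1181, 1244, 1216, 1029 and 1017 CPM, with overlap (log2 fold change -0.16, SE 0.08, adjusted p = 0.14). It was not called in marrow either (log2 fold change 0.18, adjusted p = 0.31).

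Slc16a3 (MCT4; chr11:120948480-120960868, GRCm38) exports lactate from glycolytic cells. It rose the most of all members in kidney, from 0.635, 1.41, 1.64, 1.33 and 1.30 CPM to 26.7, 4.54, 11.5, 13.7 and 41.05 CPM (log2 fold change 3.96, SE 0.65, adjusted p = 0.0024). The counts behind these values were 17 to 38 per vehicle kidney and 135 to 1368 per treated kidney. The lowest treated kidney, mouse 2, was above the highest vehicle kidney, and the treated mice spanned a wide range. Neutrophil markers summed to 0.432 to 1.21 CPM in vehicle and 1.22 to 3.33 CPM in treated kidneys. Macrophage markers summed to 114 to 146 CPM and 67.8 to 82.5 CPM. Of the 8 macrophage genes, 5 were called lower and 1 higher. Csf1r held most of that sum, at 70.4 to 93.6 CPM and 32.6 to 51.6 CPM, while Mrc1 was at 1.57 to 2.48 CPM and 1.89 to 3.98 CPM. The part of these cells in the Slc16a3 values was not tested. In marrow Slc16a3 was at 87.5 to 104 CPM and at 152, 143, 81.7, 95.4 and 178 CPM (log2 fold change 0.43, SE 0.18, adjusted p = 0.087). The lowest values were in mice 3 and 4, and without them Slc16a3 was called higher in marrow as well (log2 fold change 0.71, adjusted p = 2.2e-05). With all mice, the change differed between the tissues by 3.47 (adjusted p = 0.00015).

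Slc16a1 (MCT1), a carrier of lactate in both directions and the main one of red cells, fell in marrow from 236, 269, 241, 311 and 203 CPM to 54.4, 77.9, 124, 87.6 and 55.6 CPM (log2 fold change -1.66, SE 0.21, adjusted p = 7.0e-05). The groups did not overlap, and the late erythroid markers fell over the same mice. In kidney Slc16a1 was at 21.98, 22.6, 24.4, 40.1 and 41.3 CPM and at 36.4, 22.7, 18.4, 19.999 and 38.2 CPM, with full overlap (log2 fold change -0.15, SE 0.29, adjusted p = 0.75). As a share of the CPM per kb of the 3 transporters measured, Slc16a1 went from 59.6% ± 4.10 to 31.7% ± 11.5 in marrow. Slc16a3 went from 19.2% ± 2.30 to 42.5% ± 11.9, so the gene that led by mean share changed. Treated marrows ranged from 20.4% to 48.2% for Slc16a1 and from 26.4% to 54.3% for Slc16a3. In treated mice 3 and 4, which had the fewest neutrophil transcripts, Slc16a1 still led. In kidney Slc16a3 went from 2.63% ± 1.01 to 27.5% ± 10.3, and Slc16a1 still led with 52.8% ± 8.43. Slc16a6, a carrier of other monocarboxylates, was at 90.4 to 106 CPM and at 67.0 to 76.2 CPM in marrow, without overlap but under 1.5-fold (log2 fold change -0.44, SE 0.08, adjusted p = 0.00079).

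**Figure D3:**
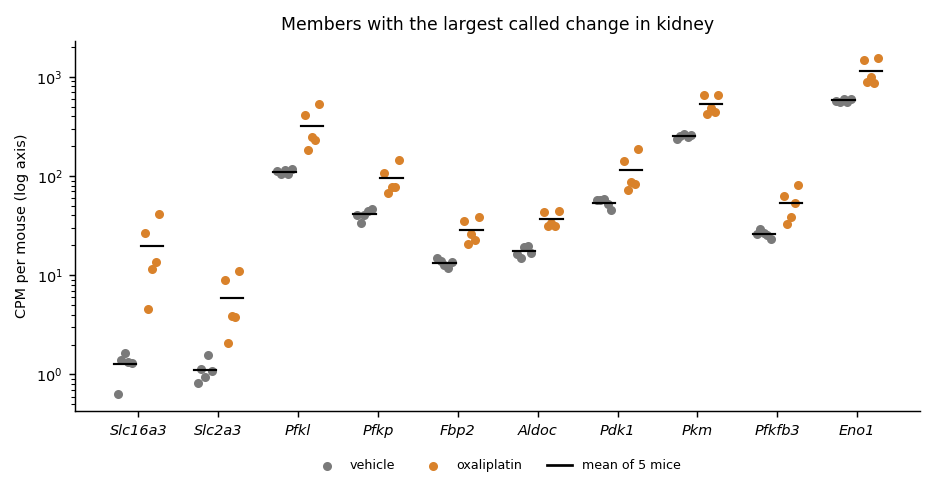
CPM in each kidney (vertical log axis, 1 point per mouse, bar at the mean of 5) for the 10 called members with the largest change. Treated points lie above the vehicle points in all 10 genes, and mice 1 and 5, the first and last treated point of each gene, are the upper ones, as for Slc16a3 at 26.7 and 41.05 CPM.

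The pyruvate dehydrogenase kinases switch off entry of pyruvate into the citric acid cycle. Pdk1, a known target of hypoxia-inducible factor, rose in both tissues. In marrow it was at 53.1, 52.9, 47.2, 64.8 and 44.2 CPM with vehicle and at 76.4, 89.5, 85.2, 71.1 and 75.1 CPM with oxaliplatin, without overlap (log2 fold change 0.60, SE 0.11, adjusted p = 0.00098). This change sat at the 1.5-fold line: it fell under it without vehicle mouse 3 (0.56) or 5 (0.54) and without oxaliplatin mouse 2 (0.55) or 3 (0.57). In kidney Pdk1 was at 57.4, 56.7, 58.6, 52.0 and 45.0 CPM and at 141, 72.0, 86.3, 82.8 and 187 CPM, also without overlap (log2 fold change 1.08, SE 0.27, adjusted p = 0.017).

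Pdk4, the isozyme of fasting and fat use, was low in vehicle marrow, at 1.96, 1.75, 1.39, 1.74 and 2.01 CPM, and at 18.2, 15.4, 23.2, 16.6 and 16.3 CPM with oxaliplatin (log2 fold change 3.34, SE 0.16, adjusted p = 4.5e-08). The 5 treated mice were close to each other and all far above the vehicle mice. Its share of the kinase CPM per kb went from 1.72% ± 0.33 to 12.2% ± 1.30, while Pdk3, the leading isozyme of marrow, went from 59.0% ± 1.47 to 47.7% ± 3.32. Adipocyte markers rose beside Pdk4, as given with Pck1 below, but in another order of treated mice. Pdk4 was lowest in mouse 2 and highest in mouse 3, and the adipocyte sum was lowest in mouse 5 and highest in mouse 4. Skeletal muscle markers, of which 6 of 7 tested were called higher, were lowest in mouse 4 and highest in mouse 3. The part of either cell type in the rise was not tested. In kidney Pdk4 was at 13.8 to 25.8 CPM with vehicle and at 11.8, 6.83, 9.92, 17.999 and 116 CPM with oxaliplatin (log2 fold change 0.66, SE 0.81, adjusted p = 0.59). Mouse 5 alone made the mean higher, and without it the log2 fold change was -0.81.

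Pdk3 fell in kidney from 57.1, 52.4, 62.4, 57.9 and 60.4 CPM to 27.0, 33.9, 33.1, 35.3 and 25.1 CPM (log2 fold change -0.91, SE 0.09, adjusted p = 3.2e-06). It was the member whose treated mice lay wholly below the vehicle mice in kidney, and mice 1 and 5 were lowest. Its share of the kinase CPM per kb went from 13.8% ± 1.29 to 6.73% ± 1.55. In marrow it was at 43.7, 44.8, 43.2, 52.96 and 38.99 CPM and at 47.7, 55.5, 66.0, 39.1 and 49.2 CPM, and the groups overlapped (log2 fold change 0.20, adjusted p = 0.27). The tissues differed by -1.18 on the log2 scale (adjusted p = 2.7e-05). Pdk2, the leading isozyme of kidney with 78.5% ± 1.69 of the CPM per kb, was at 447, 426, 415, 385 and 378 CPM there with vehicle and at 505.5, 488, 493, 404 and 424 CPM with oxaliplatin, with overlap (log2 fold change 0.17, adjusted p = 0.10). In marrow its log2 fold change was 0.43 (adjusted p = 0.058), and it was called without oxaliplatin mouse 5 (0.59, adjusted p = 0.0034).

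Gluconeogenesis is represented by Pck1, which makes phosphoenolpyruvate, the fructose bisphosphatases Fbp1 and Fbp2, and G6pc, which releases free glucose. In kidney G6pc fell, from 579, 543, 429, 541 and 529 CPM to 243, 273, 246, 298 and 446 CPM (log2 fold change -0.80, SE 0.16, adjusted p = 0.0030). The groups overlapped through oxaliplatin mouse 5, at 446 CPM, and vehicle mouse 3, at 429 CPM. Pck1 was at 2551, 3206, 2728, 2974 and 3284 CPM with vehicle and at 2219, 1973, 2298, 2100 and 3357 CPM with oxaliplatin (log2 fold change -0.30, SE 0.13, adjusted p = 0.088). Mouse 5 again was the highest of the treated mice, above all vehicle mice, while the other 4 lay below them. Fbp1, the bisphosphatase of liver and kidney, was at 1232, 1167, 1285, 1200.5 and 1283 CPM and at 1018, 1277, 1247, 997 and 901 CPM, with overlap (log2 fold change -0.18, SE 0.09, adjusted p = 0.15). Fbp2, the muscle form, rose from 15.0, 13.8, 12.8, 11.7 and 13.5 CPM to 35.4, 20.9, 26.1, 22.9 and 38.3 CPM without overlap (log2 fold change 1.102, SE 0.16, adjusted p = 0.00020), and still made up 3.08% ± 1.17 of the CPM per kb of both.

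Proximal tubule markers, summed over 7 genes including Slc34a1, Lrp2 and Slc22a6, ranged from 17419 to 20260 CPM with vehicle and from 13623 to 17273 CPM with oxaliplatin, lowest in mice 1 and 5, and 2 of the 7 genes were called lower. The ranges overlapped when libraries were scaled by size alone. None of the 7 was at 0. The list did not move as one. Slc34a1, which held the largest part of the sum, Miox and Slc22a6 were lower with oxaliplatin without overlap, and Lrp2 overlapped. Other genes ran upward with overlap: Cubn from 689 to 898 CPM to 855 to 1049 CPM, Slc5a12 from 243 to 363 CPM to 354 to 464 CPM, and Slc5a2 from 453 to 527 CPM to 485 to 666 CPM. Summed podocyte, endothelial, loop and late erythroid markers were higher with oxaliplatin in kidney without overlap, and the adipocyte list went from 37.4 to 64.4 CPM to 82.8 to 199 CPM. The late erythroid list did not move as one either, and 1 of its 4 tested genes was called higher. Slc4a1 held most of that sum, at 41.3 to 57.3 CPM with vehicle and 52.3 to 106 CPM with oxaliplatin. Alas2 was at 7.01 to 9.85 CPM with vehicle and spread from 2.76 to 19.1 CPM with oxaliplatin. Loop and distal tubule markers ranged from 4228 to 4948 CPM with vehicle and from 5127 to 5638 CPM with oxaliplatin. The part of these cell types in the kidney results was not tested.

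In marrow Pck1 (chr2:173153048-173159273, GRCm38) was at 0.317, 0.204, 0.189, 0.285 and 0.422 CPM with vehicle, from 6 to 13 counts per mouse, and at 17.1, 7.99, 28.9, 35.9 and 3.85 CPM with oxaliplatin (log2 fold change 6.04, SE 0.66, adjusted p = 3.5e-05). It was the largest change of any member, 65.7-fold as fitted, and every treated mouse was above every vehicle mouse. Pck1 is also an enzyme of fat cells, which use it to make glycerol for triglyceride. Adipocyte markers, 7 genes including Adipoq, Plin1 and Cidec, were all called higher, and their sum went from 99.2 to 166 CPM with vehicle to 2384, 1111, 2462, 2602 and 537 CPM in the 5 treated mice. Pck1 and this sum had the same order over the treated mice, from mouse 5 through mice 2, 1 and 3 to mouse 4. Summed B cell markers had that order too, although they fell, from 340 to 594 CPM with vehicle to 105 to 168 CPM with oxaliplatin. The part of these cell types in the Pck1 values was not tested. Fbp1 rose from 2.91, 3.38, 1.83, 4.93 and 3.38 CPM to 8.93, 8.09, 7.90, 5.19 and 7.01 CPM, without overlap (log2 fold change 1.17, SE 0.24, adjusted p = 0.0023). G6pc had at most 4 counts in any marrow library and 0 in all 5 treated ones, and Fbp2 at most 10.

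**Figure D4:**
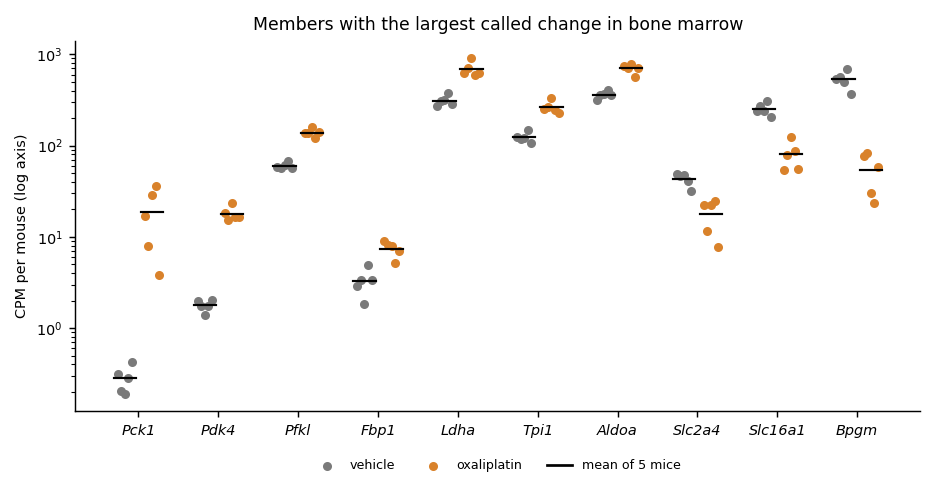
CPM in each marrow (vertical log axis, 1 point per mouse, bar at the mean of 5) for the 10 called members with the largest change, from Pck1 to Bpgm. The groups are separate in all 10 genes; treated points of Pck1 span 3.85 to 35.9 CPM, whereas those of Pdk4 span 15.4 to 23.2 CPM.

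**Figure D5:**
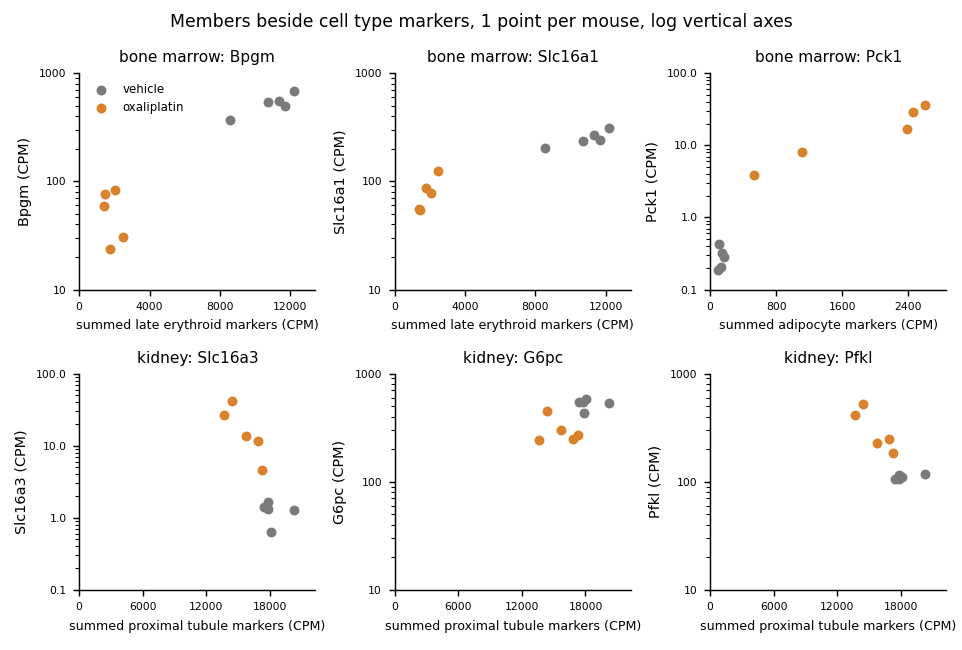
CPM of a member (vertical log axis) against the summed CPM of a cell type's markers (horizontal axis) in the same library, 1 point per mouse. In marrow Bpgm and Slc16a1 are low in the mice with 1404 to 2485 CPM of late erythroid markers and Pck1 is high in those with 537 to 2602 CPM of adipocyte markers. In kidney Slc16a3 and Pfkl are highest in the 2 mice with the lowest proximal tubule sums. G6pc differs between these 2 mice: it is lowest in oxaliplatin mouse 1, at 243 CPM, and highest among the treated in mouse 5, at 446 CPM.

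Whether a member changed differently in the 2 tissues was tested as the interaction of tissue and treatment over all 20 libraries. The labels do not say whether kidney and marrow libraries of the same number came from the same mouse, and the test takes all 20 as independent. It was called for 15 of the 39 members, 8 with the higher change in kidney and 7 with the higher change in marrow, where 23.7% of 24321 genes were called (10.8% and 12.8%). Higher in kidney were Slc16a3, Bpgm, Slc2a3, Slc2a4, Slc16a1, Hk2, Aldoc and Pfkfb3. Higher in marrow were Pck1, Pdk4, Fbp1, Pdk3, Tpi1, Ldha and Tigar. The Pfkfb3 call was marginal (0.62, adjusted p = 0.049): it was lost without any of the 5 vehicle marrows, marrow oxaliplatin mice 1, 2 or 5, kidney vehicle mice 1, 3, 4 or 5, or kidney oxaliplatin mice 1, 4 or 5, with adjusted p of 0.053 to 0.12. For Bpgm, Slc2a4 and Slc16a1 the difference came from a fall in marrow. None of the 3 phosphofructokinases differed by this test: the difference was 0.27 (SE 0.27, adjusted p = 0.47) for Pfkl, 0.31 (SE 0.20, adjusted p = 0.28) for Pfkp and 0.03 (SE 0.34, adjusted p = 0.97) for Pfkm.

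The vehicle mice show which isozymes each tissue uses without the drug. Between vehicle kidney and vehicle marrow, 21 members were higher in kidney and 12 lower, where 72.9% of 24321 genes were called (34.6% higher and 38.3% lower). RNA of the tissues was extracted by different methods, so extraction and tissue cannot be told apart. The median log2 difference of all genes was -0.12, or -0.54 when libraries were scaled by size alone. G6pc (14.3 on the log2 scale), Pck1 (13.8), Fbp2 (10.1), Fbp1 (8.98), Ldhb (7.13) and Pdk2 (5.16) were the members most in excess in kidney. Hk3 (-8.71), Slc2a3 (-7.43), Slc16a3 (-5.83) and Hk2 (-4.44) were the members most in excess in marrow. Slc16a3 and Slc2a3, 2 of the genes that rose in kidney, were thus among those that marrow carries and vehicle kidney hardly does.

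Other genes of the route were counted from a list of 42. In marrow 36 were tested, 4 rose and 5 fell, and in kidney 37 were tested, 4 rose and 2 fell. The shares of all genes called higher and lower were 11.6% and 11.8% in marrow and 7.68% and 3.81% in kidney, so the marrow counts of this list are near the background. In marrow Gpd1, which makes glycerol 3-phosphate for fat synthesis, rose from 13.1 to 26.1 CPM with vehicle to 129, 102, 135, 176 and 43.9 CPM (log2 fold change 2.72, SE 0.33, adjusted p = 8.6e-05), again lowest in mouse 5 and highest in mouse 4. The glucose transporter Slc5a2 (-1.48 on the log2 scale) and the testis lactate dehydrogenase Ldhc (-1.22) fell there, each from under 10 CPM. Further called genes of this list in marrow, named after their values were seen, were Pgm1 (1.00), Eno3 (1.01) and Eno1b (0.87), which rose, and mitochondrial Pck2 (-1.11) and Bsg (-0.71), the chaperone of the lactate carriers, which fell. Pck2 was at 94.3 to 126 CPM with vehicle and at 38.6 to 73.6 CPM with oxaliplatin, opposite in direction to cytosolic Pck1. In kidney Ldhd, the D-lactate dehydrogenase of mitochondria, fell from 1310 to 1660 CPM to 609, 864, 910, 613 and 482 CPM without overlap (log2 fold change -1.10, SE 0.16, adjusted p = 0.00027). Hkdc1 (0.77 on the log2 scale), a hexokinase-like gene, the monocarboxylate transporter Slc16a7 (0.70) and Eno1b (1.14) rose in kidney. The other called genes there, again named after their values were seen, were Gapdhs (0.60) and mitochondrial Gpd2 (-0.62).

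Of 23 regulators of these genes, 22 were tested in marrow, of which 8 rose past the call rule, and by adjusted p alone 9 rose and 2 fell (all genes, 11.6% called higher, and 16.3% and 16.8% by adjusted p alone). All 23 were tested in kidney, of which 2 rose past the call rule, and by adjusted p alone 5 rose and 4 fell (all genes, 7.68% called higher, and 14.4% and 15% by adjusted p alone). Egln3, the prolyl hydroxylase that is itself induced by hypoxia-inducible factor, rose in both tissues. It was at 11.3 to 14.7 CPM and at 32.2, 32.8, 25.3, 19.5 and 33.8 CPM in marrow (log2 fold change 1.13, SE 0.15, adjusted p = 0.00010). In kidney it was at 15.9 to 24.8 CPM and at 65.3, 26.9, 30.96, 39.02 and 71.0 CPM (log2 fold change 1.26, SE 0.30, adjusted p = 0.013), with mice 1 and 5 highest. Irs1, an adaptor of the insulin receptor, also rose in both (log2 fold changes 2.21 in marrow and 0.60 in kidney). Mlxipl, the sugar-responsive factor ChREBP, rose in marrow from 0.171 to 0.570 CPM to 6.11, 2.10, 3.24, 5.56 and 1.91 CPM (log2 fold change 3.39, SE 0.42, adjusted p = 4.5e-05). Ppargc1a, a coactivator of oxidative genes, rose there too (log2 fold change 0.93, adjusted p = 0.046), with overlap. The other 4 of the 8, named after their values were seen, were Hif1a (0.64) and Epas1 (0.84), the oxygen-sensed subunits of hypoxia-inducible factor, the insulin adaptor Irs2 (0.89) and the glucose-uptake inhibitor Txnip (0.90).

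The treated kidneys were not alike. Oxaliplatin mice 1 and 5 were the 2 highest treated mice for 24 of the 39 members (61.5%), against 12.2% of all 19293 genes tested, and the 2 lowest for 2 (5.13%, against 11.9%). Mouse 5 was highest for 13 of the 14 members that rose. With both left out, Slc16a3, Slc2a3, Pfkl, Pfkp, Pkm, Pfkfb3, Aldoc, Fbp2 and Eno1 were still called higher and Pdk3 and G6pc lower. This exclusion was chosen after the values were seen. The same mice had the least hemoglobin RNA and the lowest proximal tubule sums, and the part of either in the members' values was not tested.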

How the data were processed

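Total RNA of bone marrow and kidney was sequenced in 20 libraries, 5 per group. The deposited values are raw counts per gene: the authors aligned reads with STAR and counted uniquely aligned, unambiguous reads against Ensembl 101, with no normalization; whether counting used strand is not given in the sources used here, and library preparation is described in 2 ways. Of 55774 lines per table, exact repeats and 1 incomplete line were dropped, which left 55486 genes. Samples were grouped by their titles. Libraries within a group are labeled as biological replicates, and p-values measure the spread between them. In each tissue, edgeR 4.0.16 (R 4.3.3) with TMM, filterByExpr (minimum count 10) and the robust quasi-likelihood test compared oxaliplatin with vehicle; both tissues were fitted together for the interaction and the tissue difference, with all libraries taken as independent, since the labels do not tie the tissues to one mouse. All p-values printed are from these fits, adjusted by Benjamini-Hochberg over all genes tested, and a call needs an adjusted p under 0.05 and a change over 1.5-fold. Library totals set a floor of 3 counts per library; it covers counting error only. CPM per kb divides CPM by the joined exon length of the GENCODE M21 model (GRCm38); shares and marker sums carry no test. Values per mouse are given for the 10 called members with the largest change in each tissue and for the leading isozyme of each family, and up to 4 genes per tissue are named from each further list, of which 1 item is not reported here. The members and lists were chosen with earlier results of these data known. Alternatives were DESeq2 1.42.0, other scalings and filters, a Y-linked covariate, a 1.5-fold test (glmTreat), the replicate number as a block and each library left out; leaving out pairs of libraries was added after seeing the data. Figures were drawn with matplotlib 3.10.9.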

Additional observations from a re-analysis of the deposited data

Results flagged for a closer look

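Within groups of 5 mice, 7 of 153 groups had 1 mouse far from the other 4 by Dixon's criterion, which chance gives in about 1 of 20 groups. In marrow these were Pgam1 in oxaliplatin mouse 4, the lowest at 114 CPM, Eno1 in the same mouse, the lowest at 573 CPM, and Pfkm in oxaliplatin mouse 3, the highest at 105 CPM. In kidney all were in oxaliplatin mouse 5, where Pdk4 (116 CPM), Pck1 (3357 CPM) and G6pc (446 CPM) were the highest and Bpgm (35.8 CPM) the lowest of the group.

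The change with oxaliplatin differed between kidney and marrow for 15 members, by the interaction of tissue and treatment over all 20 libraries, given here as the kidney change minus the marrow change on the log2 scale. It was positive for Slc16a3 (3.47), Bpgm (3.03), Slc2a3 (1.86), Slc2a4 (1.46), Slc16a1 (1.43), Hk2 (1.01), Aldoc (0.90) and Pfkfb3 (0.62). It was negative for Pck1 (-6.42), Pdk4 (-2.75), Fbp1 (-1.41), Pdk3 (-1.18), Tpi1 (-0.93), Ldha (-0.88) and Tigar (-0.75). The Pfkfb3 value sat at the edge of the call rule, with an adjusted p of 0.049, and it was 0.42 without kidney oxaliplatin mouse 5.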

How the results depend on the processing

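Calls were counted again under each alternative, and among single members 3593 values kept direction and side of the threshold, 77 lost the call, 29 gained one and 69 changed sign. Without a fold threshold, 5 members fell in marrow. Tested against 1.5-fold, 5 members rose and 1 fell in kidney, and the interaction kept 5 positive and 3 negative; this test asks for more than the call rule by its construction. Without kidney oxaliplatin mice 1 and 5, chosen after seeing the data, 9 rose in kidney. In CPM per kb the leading isozyme differed between vehicle and oxaliplatin in 1 kidney family, phosphofructokinase, and in CPM in 0, since Pfkl then led in both groups. Every sign change was in a member not called, and its cause was not tested. In marrow, Eno2 was 0.1067 with library size scaling, 0.0143 with the block and 0.0947 with the Y-linked covariate (-0.303 to 0.1069 with 1 library left out); Pfkfb1 was 0.0211 with DESeq2 size factors, 0.1325 with library size scaling, 0.0241 with DESeq2, 0.1176 with the covariate and 0.0116 without hemoglobin genes (-0.1178 to 0.098). Library size scaling gave 0.063 for Pfkm and 0.0716 for Hk1, the covariate 0.2114 for Pfkm (-0.5163 to 0.0804), and leaving out mice 3 and 4 gave 0.1416 for Pfkfb4 (-0.2788 to 0.0065) and 0.021 for Hk3. Aldoc ranged from -0.0635 to 0.2555. In kidney, Pdk4 was -0.1972 with the block and -0.824 without mice 1 and 5 (-0.8144 to 0.9204), Hk3 -0.0351 without them (-0.1744 to 0.1867) and Slc16a6 0.088 with library size scaling (-0.2323 to 0.0481), while Pfkm ranged from -0.0084 to 0.0584. For the interaction, Pfkfb4 was 0.0163 with library size scaling, 0.0747 with 10 counts in every sample, 0.0425 with the block and 0.2031 with the covariate (-0.168 to 0.0852), and Pfkm -0.1082 with the covariate and -0.001 without hemoglobin genes (-0.1756 to 0.4966). Hk3 ranged there from -0.0876 to 0.2824 and Eno1 from -0.0575 to 0.1584. Between vehicle tissues, Slc2a4 was -0.1247 and Gpi1 -0.3398 with library size scaling, and Gpi1 -0.1448 with 10 counts in every sample and -0.2377 with the covariate. Library size scaling moved the median log2 fold change of all genes from -0.04 to 0.11 in marrow and from 0.02 to 0.16 in kidney. With the replicate number as a block, 14 members rose and 3 fell in marrow and 14 rose and 2 fell in kidney. In kidney, Eno2 was then lost (edgeR adjusted p = 0.073) and Hk2 gained (0.66, edgeR adjusted p = 0.022). The interaction of Pfkfb3 was lost too (edgeR adjusted p = 0.087). Same-numbered libraries correlated at -0.118 to 0.228 in marrow and -0.154 to 0.0754 in kidney. Such values cannot tell whether same-numbered mice shared more than a number. Genes near 1 CPM, such as Eno2 and kidney Hk3, are limited by depth.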

Other observations

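The 5 treated mice had the same order of CPM in several members, an order noticed after the values were seen. In marrow, Hk3, Pfkfb4, Slc16a3 and Slc2a3 shared the order of mice 3, 4, 2, 1, 5 from low to high, which was also the order of the summed neutrophil markers. Hk1, Pfkm, Pklr and Slc16a1 shared another order, mice 1, 5, 2, 4, 3. In kidney, Aldoa, Aldoc, Eno1, Gpi1, Ldha, Pgk1 and Slc2a1 shared the order of mice 4, 2, 3, 1, 5, and Pdk1, Pfkl, Slc2a3, Fbp2 and Pkm the order 2, 4, 3, 1, 5. Marrow mice 3 and 4 were the 2 highest treated mice for 9 of 37 members (24.3%, against 16.1% of all genes tested) and the 2 lowest for 9 (24.3%, against 19.2%).

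The second row that carries the symbol Aldoa, ENSMUSG00000114515, is a gene upstream of Aldoa on the same strand of chromosome 7. It was at 0.998 to 2.05 CPM with vehicle and at 0.288 to 1.095 CPM with oxaliplatin in marrow, with overlap (log2 fold change -1.12, SE 0.38, edgeR adjusted p = 0.036), opposite in direction to Aldoa. In kidney its log2 fold change was 0.33 (edgeR adjusted p = 0.43).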
